A study of Mus musculus with 101 samples.

Results

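Germ cells of F3 XY mouse embryos descended from dams given the middle dose of benzo[a]pyrene (BaP), a polycyclic aromatic hydrocarbon, were compared with those of the vehicle lineage. The 10 embryos, out of 101 in the series, were taken by their labels: generation F3, XY, and a lineage dose of 0.2 mg/kg-day (4 embryos) or oil vehicle (6 embryos). All were OG2 mice, whose Pou5f1-EGFP transgene marks germ cells, from matings of homozygous parents. The F0 dams were dosed from E6.5 to E15.5, so the F3 embryos themselves received no BaP. Gonads were taken at E13.5, EGFP-positive cells were sorted, and poly(A) RNA of each embryo was sequenced as a separate library. The 4 exposed-lineage embryos were D1390.1, D1390.5, D1464.2 and D4021.2. D1390.1 and D1390.5 were littermates, so 3 dams stood against 6 vehicle dams (D1344.2, D1388.1, D3402.3, D3523.1, D3612.2 and D3651.1). D1390.5 had been singled out as atypical from its own expression values, and each comparison is given with and without it.

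At this age XY germ cells lie in newly formed testis cords among Sertoli cells, keep dividing for a short time and then enter mitotic arrest, while XX germ cells start meiosis. Male fate is marked by Nodal signalling genes and Nanos2, and female fate by Stra8 and the genes of meiotic prophase. Chemokines are small secreted proteins that guide cells carrying matching receptors. CCL17 signals through CCR4, CCL25 through CCR9, and CCR7 is the receptor of CCL19 and CCL21.

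The XY labels held in all 10 embryos. Eif2s3y, a Y-linked translation factor gene, had 182, 109, 250 and 186 normalized counts in D1390.1, D1390.5, D1464.2 and D4021.2, and from 158 to 380 in the vehicle embryos with a median of 197. It was 0 in the 2 exposed and 6 vehicle F3 XX embryos, as was Ddx3y. Xist, the RNA that silences an X chromosome, was low in both sexes, at 0.168 to 0.762 in the exposed XY embryos and 0.123 to 1.30 in the vehicle XX embryos. It therefore did not separate the sexes. D1390.5 had the lowest Eif2s3y of all 53 XY embryos in the series, where the others had at least 114, and the lowest Ddx3y, a Y-linked RNA helicase gene, at 3.45 against at least 4.38. Germ cell genes were abundant in every library: the 11 genes listed for germ cell identity summed to 3611, 4059, 4769 and 3420 in the exposed embryos and to 3750 to 5672 in vehicle, with Dppa3, a maternal-effect factor of the germ line, as the most abundant.

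Reads assigned to genes, as recovered from the normalized values, numbered 5529311, 6703868, 7634443 and 8792405 in the exposed embryos in the same order, and 6981569 to 10439961 in the vehicle embryos. Some embryos stood apart. D3402.3, a vehicle embryo, had the lowest median correlation with the others, 0.935, and D1388.1, another vehicle embryo, had globin and other erythroid genes summing to 5988 where the 4 exposed embryos had 3.15 to 5.81. D1390.5 differed from the vehicle median by at least 4-fold in 333 genes, against 74 in its littermate, 2 in D1464.2 and 129 in D4021.2. Vehicle embryos had 1 to 156 such genes. By this count D1390.5 was the farthest of the 10 from the vehicle median, to which the vehicle embryos themselves contribute. By median correlation with the vehicle embryos it was not, at 0.945 against 0.935 in D3402.3.

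With all 4 exposed embryos, 649 of 13139 genes tested were at least 1.5-fold lower than in vehicle at an unadjusted p under 0.05 (4.94%), and 437 were at least 1.5-fold higher (3.33%). The lower genes included the chemokine genes Ccl17 and Ccl25, the receptor gene Ccr7 and many genes that were male-specific in vehicle embryos, most markers of Sertoli cells among them. The higher genes included a block of X-linked Rhox homeobox genes and the imprinted gene Phlda2. After adjustment for multiple testing, limma called 0 genes (0%), with a lowest adjusted p of 0.114. An unadjusted p under 0.05 was reached by 1392 genes, or 10.6%. With no filter on low values limma called 1 gene, Fgf15, which was 0 in all 4 exposed embryos. Other tools gave other counts: edgeR's likelihood ratio test called 85 genes, its quasi-likelihood test 5, and limma with array weights, which lets libraries that stand apart count less, 185. Since no gene passed the main test, values below are described as higher or lower, and p values are unadjusted unless stated.

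Without D1390.5, 251 of 13151 genes were at least 1.5-fold higher (1.91%) and 382 lower (2.9%) at an unadjusted p under 0.05. Again limma called 0 genes (0%), and its lowest adjusted p was 0.729. An unadjusted p under 0.05 was reached by 808 genes (6.14%). Likelihood ratio testing in edgeR then called 1 gene, Phlda2, where it had called 85 with all 4 embryos. The quasi-likelihood test and limma with array weights called 0. Of the 1086 genes past both limits with all 4 embryos, 518 kept their place without D1390.5 (47.7%): 197 higher and 321 lower. They made up 81.8% of the 633 genes found without it. The other 568 (52.3%), 240 higher and 328 lower, needed D1390.5. The sign turned in 0 of the 568. Without D1390.5, 205 of them fell short of 1.5-fold, 357 were still past 1.5-fold but missed the limit on p, and 6 were too low to be tested. D1390.5 was the most extreme of the 4 exposed embryos in 425 of these 568 genes (74.8%), and in 210 of the 518 that stayed (40.5%), against 32.2% of all genes tested. The exposed and vehicle ranges did not overlap in 76 of the 518 genes (14.7%) and in 18 of the 568 (3.17%), against 1.3% of all genes tested, though both sets were taken from this same comparison. The counts without D1390.5 leaned on D4021.2 as well, since 86 genes were higher and 134 lower when it was also left out. When D1464.2 was also left out, 478 were higher, 535 were lower and limma called 4, Ucma, Gal, Ocln and Dnaic1.

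With both D1390 littermates left out, 228 genes were higher and 304 lower, and limma called 0. Leaving out any other embryo alone removed fewer of the 1086 genes. D4021.2 came next, with 693 kept, and the vehicle embryos gave 804 to 1021. D1464.2 acted the other way. Without it limma called 172 genes, 67 higher and 105 lower, and 669 genes were higher and 828 lower at the unadjusted limits. Of the 172 calls, 76 were male-specific in vehicle embryos of F1 and F2 (44.2%, against 8.28% of the genes tested there) and 55 female-specific (32%, against 8.21%), and 145 were also past the unadjusted limits without D1390.5. Without the vehicle embryo D3523.1, limma called 64 genes, 6 higher and 58 lower, of which 50 were male-specific (78.1%, against 8.28%). D1464.2 was the exposed embryo closest to vehicle, and D3523.1 had the lowest male-specific score among the vehicle embryos (2.77).

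**Figure D1:**
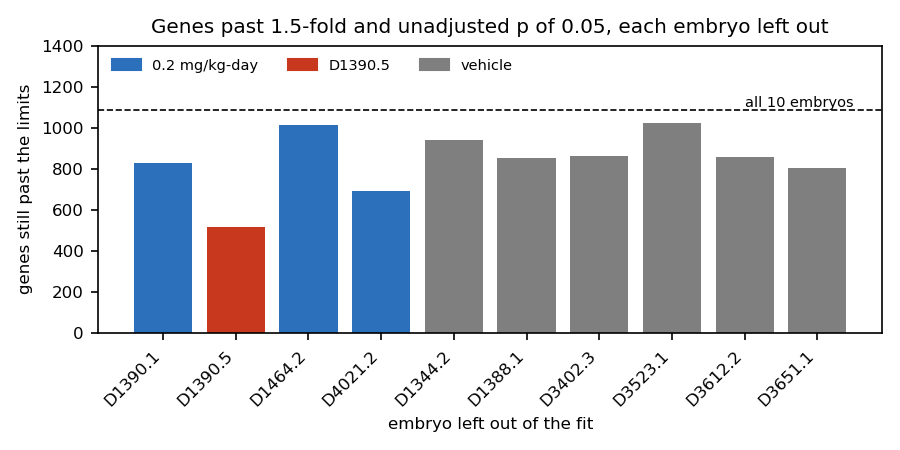
Number of the 1086 genes past 1.5-fold and an unadjusted p of 0.05 (dashed line) that were still past both limits, in the same direction, when each embryo was left out of the fit. Bars are colored by group, and the lowest bar, at 518, was D1390.5.

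The 3 chemokine genes were lower in the exposed lineage, in D1390.5 and in its littermate, and in D4021.2, while D1464.2 stayed near or within the vehicle range. None of the 3 needed D1390.5 to pass the unadjusted limits. Ccl17 had 0, 0, 0.883 and 0.191 normalized counts in D1390.1, D1390.5, D1464.2 and D4021.2 (mean 0.268 ± 0.419 SD, n = 4). In vehicle it ranged from 0.254 through a median of 1.58 to 2.74. The 3 embryos other than D1464.2 lay below every vehicle embryo, though these levels are a few reads: 0, 0, 7 and 2 against 2 to 29. In limma its log2 difference was -1.38 ± 0.40 (SE; unadjusted p 0.00144, adjusted 0.169) with all 4 embryos and -1.22 without D1390.5 (unadjusted p 0.00855).

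Ccl25 was the most abundant of the 3. It had 13.6, 7.61, 26.5 and 8.10 in the exposed embryos (mean 14.0 ± 8.78 SD, n = 4) and 20.5, 30.9 and 35.8 as lowest, median and highest in vehicle. D1464.2 alone fell inside the vehicle range. The log2 difference by limma was -1.21 ± 0.37 (unadjusted p 0.00241, adjusted 0.189), and -1 without D1390.5 (unadjusted p 0.0182). Ccr7 had 1.18, 0.431, 4.92 and 2.1, against 3.8, 6.01 and 10 in vehicle. Here too D1464.2 overlapped vehicle and the other 3 did not. For Ccr7, limma gave a log2 difference of -1.59 ± 0.43 (unadjusted p 0.000708, adjusted 0.156), or -1.19 without D1390.5 (unadjusted p 0.0109). Ccr7 and Ccl17 were also male-specific genes in vehicle embryos of F1 and F2, and Ccl25 was not.

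All 3 passed the unadjusted limits whichever of the 10 embryos was left out. Without D1464.2, limma's adjusted p fell to 0.0301 for Ccl17, 0.0279 for Ccl25 and 0.0129 for Ccr7. D1464.2 was the highest exposed embryo for each gene, so leaving it out made the differences more negative by construction. The log2 differences were then -1.71, -1.57 and -2.03. This adds no separate support, and the 3 embryos left included both D1390 littermates. Over all alternatives the adjusted p ranged from 0.0301 to 0.864, from 0.0279 to 0.864 and from 0.0129 to 0.864. With both D1390 littermates left out, 2 exposed embryos remained, and the log2 differences were -0.90 for Ccl17 (unadjusted p 0.0808 by limma), -0.96 for Ccl25 (0.0497) and -0.80 for Ccr7 (0.117).

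**Figure D2:**
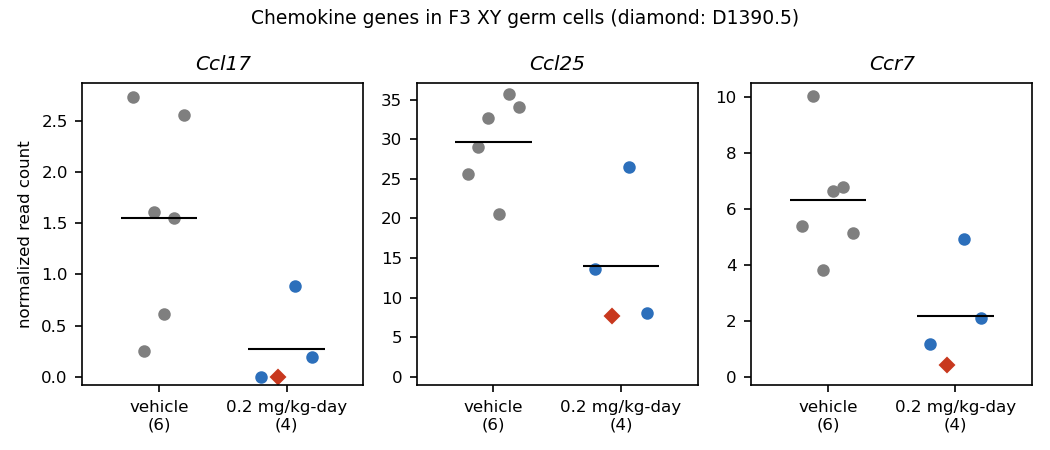
Normalized read counts of Ccl17, Ccl25 and Ccr7 in 6 vehicle and 4 exposed-lineage F3 XY embryos, with group means as lines and D1390.5 as a diamond. D1464.2 is the highest exposed embryo in each panel and the others lie below the lowest vehicle embryo.

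Across the 39 listed C-C chemokines and their receptors, 21 were in the table and 11 were tested. These 3 were lower (27.3%, against 4.94% of all genes), 0 were higher and 8 passed in neither direction, and the same 3 were lower without D1390.5. The 3 had been chosen in advance as markers of this comparison, with earlier results known. Their share is therefore no separate support for a change of the list. A higher count of 1 arose without D1344.2. The median log2 difference of the 11 was 0.09, or -0.10 without D1390.5, beside 0.01 and 0.02 over all genes tested, and it ran up to 0.24 (without D3651.1) when each embryo was left out. Summed levels of the list were 82.6, 80.9, 81.1 and 61.9 in the exposed embryos and 72.0 to 125 in vehicle. Ccl27a, a skin-associated chemokine gene, made up the largest share. It had 35.7, 35.5, 27.5 and 22.3 against 16.2, 28.1 and 46.9 in vehicle, so that the groups overlapped fully. Ccl3, a macrophage inflammatory chemokine gene, had 0.336, 1.87, 0.504 and 2.95 against 0 to 3.12 (log2 difference 0.92). Ccl28 had 0.336, 1.58, 0.252 and 0.286 against 0 to 0.732, and D1390.5 alone was above vehicle. Ccl12 was tested at very low levels, at most 0.191 in the exposed embryos. Ccl2, Ccl6 and Ccl7 were too low to be tested, and Ccl7 was 0 in all 4 exposed embryos. Of the CXC, XC and CX3C families 5 were tested and 0 passed in either direction, with a median log2 difference of 0.19 that ran from 0.12 without D1388.1 to 0.47 without D1390.5, and without D3402.3 1 was higher. Cxcr4, the receptor that guides migrating germ cells, was the most abundant, with 3.20, 3.74, 2.65 and 4.19 against 1.13 to 3.07. Pf4 and Cxcr2 stayed below 1 in each exposed embryo, and the whole list summed to 9.25, 9.19, 9.96 and 13.6 against 7.47 to 11.2.

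Several genes were higher in all 4 exposed embryos than in every vehicle embryo. Cd164l2, a relative of the sialomucin gene Cd164, had the smallest p of all (limma, unadjusted 2.89e-05). Its levels were 1.35, 7.33, 1.01 and 1.24, against 0 to 0.508 in vehicle. D1390.5 was far above the rest, yet the other 3 also cleared the vehicle range, and the fold was 3.17 with D1390.5 and 2.16 without. Nlrp4c, of a family of NLR genes expressed in oocytes, had 15.1, 29.3, 9.71 and 21.8 against 2.26, 5.49 and 7.94. The log2 difference was 1.70 ± 0.37, and 1.46 without D1390.5. Whsc1, which encodes a histone methyltransferase, had 45.4, 47.4, 43.5 and 55.5 against 22.6, 31.4 and 34.4. It was alike in the 4 embryos, and its log2 difference was 0.68 ± 0.16 with D1390.5 and 0.68 without it. Stard8, an X-linked GTPase activator gene, had 2.19, 2.16, 1.26 and 2.19 against 0 to 0.747, with log2 differences of 1.47 and 1.42. D1390.5 was not extreme for Whsc1 or Stard8.

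Other genes with the smallest p were less even. Car5b, a mitochondrial carbonic anhydrase gene, had 3.36, 10.9, 1.51 and 2.76 against 0.423 to 1.40, and a log2 difference of 1.59 that was 1.10 without D1390.5. Nr6a1, an orphan nuclear receptor that represses Pou5f1, had 7.57, 22.4, 2.52 and 6.10 against 1.90 to 3.97, so D1464.2 overlapped vehicle. Its log2 difference was 1.28, or 0.76 without D1390.5. Kcnc4, a potassium channel gene, had 6, 11, 4 and 6 reads against at most 2 in vehicle. Mllt1, a reader of acetylated histones, and Lmtk2, a kinase gene, were clearer without D1390.5. Mllt1 had 4.88, 1.58, 2.52 and 3.53 against 0.439 to 2.24, and its log2 difference was 1.15 with D1390.5 and 1.38 without. Lmtk2 had 5.55, 2.44, 4.03 and 7.62 against 1.78 to 3.51, with 0.68 and 0.94. In both genes D1390.5 was the only exposed embryo inside the vehicle range. Lmtk2 was not past the unadjusted limits when D4021.2 or D1388.1 was left out.

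Among the genes with the smallest p in the other direction, most were male-specific and shared a pattern: D1390.1, D1390.5 and D4021.2 were low and D1464.2 lay within vehicle. Gal, which encodes the neuropeptide galanin, had 3.36, 1.15, 28.6 and 1.24 against 14.1, 26.4 and 51.5. Dnaic1, an axonemal dynein chain gene, had 30.6, 7.61, 84.3 and 17.7 against 66.1, 81.2 and 125. Log2 differences by limma were -2.69 ± 0.60 for Gal (unadjusted p 9.39e-05) and -1.78 ± 0.38 for Dnaic1 (5.37e-05), and -2.23 and -1.24 without D1390.5. Ocln, the tight junction gene occludin, had 0, 0.287, 1.51 and 0.476 against 1.17 to 3.22. Eya2, a transcription coactivator and phosphatase gene, had 0.841, 0, 4.54 and 0.191 against 2.19 to 10.4. Tnnc2, a troponin gene, had 0.168, 0, 2.02 and 0.191 against 1.76 to 5.21. The same pattern held for Ucma (1.68, 0.575, 9.08 and 1.33 against 4.67 to 14.6), Acbd7 (7.91, 5.89, 20.05 and 6.96 against 15.7 to 51.8) and Micalcl (2.69, 0.575, 8.32 and 0.858 against 6.39 to 18.3). It also held for Tmem176a (0.505, 0.287, 1.89 and 0.572 against 1.47 to 4.16). All of these were past the unadjusted limits without D1390.5 too.

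A few lower genes did not follow that order. Smarcc2, a subunit of the BAF chromatin remodelling complex, had 1.01, 1.72, 1.64 and 0.572 against 2.09, 3.04 and 3.55. All 4 exposed embryos, D1464.2 included, lay below vehicle, and the log2 difference was -1.05, or -1.18 without D1390.5. Slc13a2, a dicarboxylate transporter gene, had 1, 0, 1 and 1 reads against 4 to 40, so no fold is given (limma, unadjusted p 5.05e-05, and 0.000349 without D1390.5). It was male-specific. B930003M22Rik, an uncharacterized transcript, had 0.336, 2.16, 0.378 and 0.572 against 0.756 to 2.96. Here D1390.5 was the exposed embryo that overlapped vehicle, and the log2 difference went from -0.82 to -1.20 when it was left out. It missed the unadjusted limits when D1390.1 or D1464.2 was left out. Gm20187, in contrast to these, kept the shared pattern. It had 0, 0.144, 0.630 and 0.191 against 0.614 to 2.17, with log2 differences of -1.40 and -1.36.

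Of the genes that needed D1390.5, some differed in all 4 exposed embryos and others mainly in D1390.5. Lin28a, an RNA-binding regulator of let-7, had 8.24, 10.9, 8.45 and 9.15 against 4.82, 5.45 and 7.28. All 4 exposed embryos were above vehicle, but the log2 difference was 0.63 with D1390.5 and 0.55 without, which is under 1.5-fold. Leaving out D1388.1 had the same effect on its place. Asns, asparagine synthetase, had 115, 230, 83.5 and 157 against 48.2 to 101, and its log2 difference of 0.81 became 0.56. Egfl6, a secreted EGF-like protein gene on the X, had 1.35, 4.74, 0.630 and 0.762 against 0.123 to 0.888, and 1.05 became 0.57. The transcript 2010001M06Rik had 10.6, 22.1, 4.16 and 5.62 against 2.78 to 5.78. D1390.5 was the highest embryo for each. Acnat1, an acyltransferase gene, had 2.16 in D1390.5 and at most 1.05 in the other exposed embryos, and its mean was too low for a test without D1390.5. On the lower side, Rab3b, a GTPase gene of secretory vesicles, had 34.7, 28.4, 62.0 and 34.3 against 54.0 to 72.6. Hadh, an enzyme gene of fatty acid oxidation, had 22.5, 14.8, 42.9 and 28.5 against 39.8 to 51.6. Stap2, an adaptor gene, had 2.36, 0.287, 2.40 and 2.00 against 2.49 to 5.39, all 4 below vehicle. Their log2 differences of -0.70, -0.82 and -0.99 became -0.56, -0.56 and -0.54 without D1390.5, and Dusp14 went from -0.63 to -0.55 and Susd3 from -1.49 to -0.90. Dusp14, a phosphatase gene, was also lost without D4021.2.

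Male-specific genes were lower, and female-specific genes higher, more often than all genes in the exposed lineage, by far the most in D1390.5. To measure this without F3 embryos, sex-specific genes were taken from the 11 XY and 11 XX vehicle embryos of F1 and F2: 1096 male-specific (8.28% of 13232 tested) and 1087 female-specific genes (8.21%), at an adjusted p under 0.05 and over 2-fold. Of 1075 male-specific genes tested in F3, 289 were lower (26.9%, against 4.94% of all genes) and 2 higher, and their median log2 difference was -0.34. Without D1390.5, 133 of 1076 were lower (12.4%, against 2.9%) and 4 higher, with a median of -0.19. Left out in turn, the other 9 embryos gave 216 to 374 lower genes and 1 to 6 higher. Of 1071 female-specific genes tested, 154 were higher (14.4%, against 3.33%) and 16 lower, with a median of 0.13. Without D1390.5, 60 of 1075 were higher (5.58%, against 1.91%) and 24 lower, and the median was -0.00242. In the other 9 fits 129 to 202 were higher and 11 to 27 lower. The shift of the female-specific median thus needed D1390.5, and the lower male-specific genes were fewer without it but still more frequent than among all genes.

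A male-specific score, the mean log2 level of the male-specific genes, was 2.93, 2.18, 3.03 and 2.79 in D1390.1, D1390.5, D1464.2 and D4021.2. Vehicle embryos had 2.77 to 3.42. D1390.5 was the only exposed embryo below vehicle. The female-specific score was 1.86, 2.36, 1.68 and 1.76, against 1.63 to 1.83 in vehicle, so that both D1390 littermates were above vehicle and the other exposed embryos were within it. Gene by gene, 528 male-specific genes in D1390.5 lay below all vehicle embryos (49.1%, against 16.8% of all genes). The corresponding counts were 209 in D1390.1 (19.4%, against 11.2%), 67 in D1464.2 (6.23%, against 6.09%) and 254 in D4021.2 (23.6%, against 15.48%). Female-specific genes above all vehicle embryos numbered 453 in D1390.5 (42.3%, against 13.8% of all genes), 221 in D1390.1 (20.6%, against 10.8%), 51 in D1464.2 (4.76%, against 6.04%) and 173 in D4021.2 (16.2%, against 19.2%). D1390.1 thus leaned the same way as its littermate to a lesser degree, and D1464.2 was at the background in both directions.

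**Figure D3:**
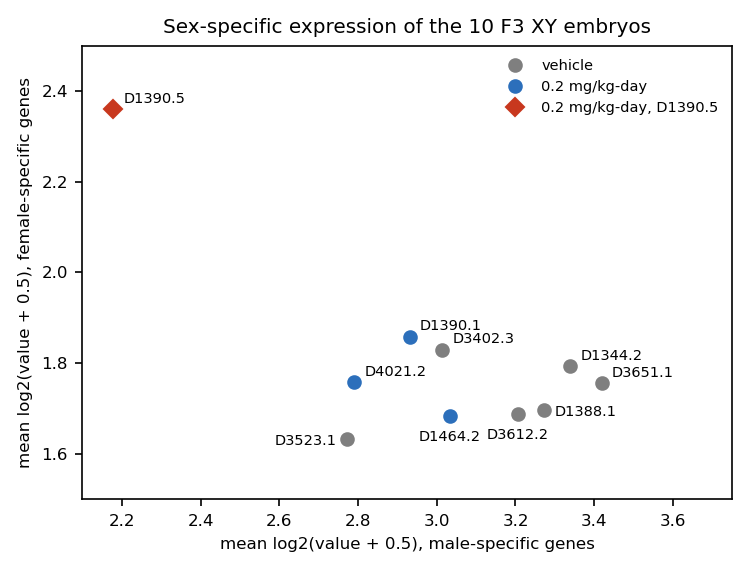
Mean log2 level of female-specific genes against that of male-specific genes for the 10 F3 XY embryos, vehicle, 0.2 mg/kg-day and D1390.5. D1390.5 stands alone at a male score of 2.18 and a female score of 2.36, and the other 9 embryos lie at male scores of 2.77 to 3.42.

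Among all 53 XY embryos of the series, D1390.5 had the lowest male-specific score (the other 52 had 2.61 to 3.59) and the highest female-specific score (1.59 to 1.99 in the others). The 6 vehicle F3 XX embryos had male-specific scores of 1.39 to 1.69 and female-specific scores of 2.82 to 3.48, so D1390.5 lay between vehicle embryos of the 2 sexes in both scores. All 16 F3 XX embryos, exposed lineages included, spanned 1.24 to 2.27 and 2.51 to 3.67. Phlda2, an imprinted growth-restricting gene and among the most abundant female-specific genes, showed it most clearly. D1390.5 had 775, its littermate D1390.1 had 94.2, and D1464.2 and D4021.2 had 2.77 and 10.8. The vehicle embryos had 3.10, 5.62 and 8.11, and vehicle F3 XX embryos 568 to 1453. The next highest of the 53 XY embryos after D1390.5 was D1390.1. The fold was 6.81 with D1390.5 (limma, unadjusted p 0.000825) and 2.54 without (0.0223), and with both littermates left out the log2 difference was 0.03. Stra8, the gatekeeper of meiosis, was 14.7 in D1390.5, beside up to 14.1 in the other 52 XY embryos of the series, and 0.673, 2.52 and 1.14 in the other exposed embryos, against 0.585 to 4.69 in vehicle. That was far below the 62.9 to 620 of vehicle F3 XX embryos. Mdk, a heparin-binding growth factor gene, had 141, 381, 75.3 and 43.2 against 54.7 to 204, and D1390.5 again led all 53. Sycp3, of the synaptonemal complex, did not follow: its 216 in D1390.5 was rank 19 of 53, with 166, 152 and 97.8 in the other exposed embryos and 103.1 to 489 in vehicle. Vbp1, a prefoldin subunit gene, had 256, 440, 303 and 238 against 213 to 907.

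The most abundant male-specific genes did not all follow. Gm9746, an uncharacterized gene, had 644, 327, 1340 and 1179 against 874, 1088 and 1373, and both littermates were below vehicle. Gm10395 and D14Ertd449e gave nearly the same values, and since these sequences may share reads the 3 are not separate evidence. Ldhb, a lactate dehydrogenase gene, had 1471, 1056, 1664 and 989 against 1000 to 1834 with a median of 1712, and Dppa5a, a pluripotency-associated gene, 4541, 3509, 3450 and 3015 against 2539 to 4792. Neither was past the unadjusted limits. Slc22a18, the imprinted neighbour of Phlda2, and Calcoco2, an autophagy receptor gene, were picked after their values were seen, as they made up the 5 calls of edgeR's quasi-likelihood test with Phlda2, Cd164l2 and Nr6a1. Slc22a18 had 2.69, 25.6, 0.630 and 1.14 against 0.293 to 0.983, and Calcoco2 13.0, 60.5, 2.77 and 2.57 against 1.46 to 3.24. All 5 were female-specific, D1390.5 was the highest embryo for each, and 0 were called by this test without it. Of the 85 genes called by the likelihood ratio test, 66 higher and 19 lower, 55 were female-specific (64.7%, against 8.21% of the genes tested in F1 and F2) and 7 male-specific (8.24%, against 8.28%).

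The Rhox genes, a cluster of reproductive homeobox genes on the X chromosome, were higher more often than all genes. The family was counted after Rhox4g, Rhox4e and Rhox4b were seen among the smallest p, so its share is not separate support. In the table were 25 Rhox genes, lying between 37213804 and 38129967 on chromosome X (GRCm38). Of 24 tested, 11 were higher (45.8%, against 3.33% of all genes) and 0 lower, and the median log2 difference was 0.57. Without D1390.5, 9 of 24 were higher (37.5%, against 1.91%) and 0 lower, with a median of 0.46. Leaving out the other embryos in turn gave 10 to 12 higher, and 1 lower without D3523.1. Across the X chromosome 38 of 534 genes were higher (7.12%), and 22 of 531 without D1390.5 (4.14%). The 11 were Rhox4a to Rhox4g, Rhox5, Rhox6, Rhox7 and Rhox9, and all but Rhox5 were female-specific. Rhox9 had 392, 864, 107 and 318 in the exposed embryos and 42.4, 79.9 and 152 in vehicle. Rhox6, chosen after its values were seen, had 281, 604, 79.8 and 239 against 30.7, 56.4 and 102.8. D1464.2 was within vehicle and the other 3 were above it for both. The log2 differences by limma were 1.97 ± 0.54 for Rhox9 (unadjusted p 0.000896; 1.51 without D1390.5) and 2.00 ± 0.53 for Rhox6 (0.000697; 1.55). Rhox9 in D1390.5 reached the level of vehicle F3 XX embryos, 716 to 1087, and was the highest of the 53 XY embryos, of which D1390.1 was next.

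Rhox5, the founding member of the family, had 989, 1131, 580 and 697 against 343, 538 and 730. Rhox7 had 22.2, 34.8, 12.1 and 14.2 against 8.76 to 14.9. Both needed D1390.5, with log2 differences of 0.64 and 0.74 that were 0.48 and 0.46 without it. Rhox4e had 30.5, 46.4, 10.5 and 25.9 against 2.92, 4.24 and 14.4, and Rhox4g 25.4, 35.5, 7.06 and 17.5 against 2.78, 3.33 and 9.34. Their log2 differences were 2.09 and 1.99, and 1.79 and 1.68 without D1390.5. The 7 Rhox4 copies kept 1 order of embryos, with D1390.5 highest, then D1390.1, D4021.2 and D1464.2. Their values are not independent, because 56.5 to 92.3% of the 75-base windows of their transcripts occur in another of the genes searched. The share was 11.6% for Rhox6 and 4.31% for Rhox9. Only Rhox4a to Rhox4g, Rhox6 and Rhox9 were searched, so windows shared with other Rhox genes were not counted. The 18 Rhox genes outside Rhox4 held 17 tested, of which 4 were higher (23.5%), and 2 without D1390.5 (11.8%). They include Rhox2a to Rhox2h, whose shared sequence was not examined. Log2 differences of Rhox4e, Rhox4g, Rhox6 and Rhox9 stayed positive in every alternative fit, from 1.15 to 2.52. The lowest value for Rhox9 was 1.15 and for Rhox4e 1.51.

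The copies also share their promoters, so sequences are shown for a pair that lies on opposite strands, as the 250 bases before the start of transcription in RefSeq (GRCm38.p6), 5′ to 3′. Rhox4e is at chrX:37557162-37557411 on the plus strand and Rhox4g at chrX:37651328-37651577 on the minus strand. Capitals mark a run of 53 bases that all 7 Rhox4 promoters in the reference have in common (Rhox4a, Rhox4a2, Rhox4b, Rhox4c, Rhox4e, Rhox4f and Rhox4g). It was found as the longest run shared by those other than Rhox4a2, a further copy.
Rhox4e: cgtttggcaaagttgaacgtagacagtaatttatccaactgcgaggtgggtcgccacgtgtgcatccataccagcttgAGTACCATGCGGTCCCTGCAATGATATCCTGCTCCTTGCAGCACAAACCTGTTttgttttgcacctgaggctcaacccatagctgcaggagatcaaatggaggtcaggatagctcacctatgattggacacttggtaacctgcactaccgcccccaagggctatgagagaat
Rhox4g: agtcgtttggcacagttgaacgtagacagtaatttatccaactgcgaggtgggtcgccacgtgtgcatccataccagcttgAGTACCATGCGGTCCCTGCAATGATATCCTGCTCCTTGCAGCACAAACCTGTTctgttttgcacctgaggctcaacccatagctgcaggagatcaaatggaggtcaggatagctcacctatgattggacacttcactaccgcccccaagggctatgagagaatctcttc
Of 32851 mouse promoters searched on both strands, only these 7 held the run (0.0213%).

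**Figure D4:**
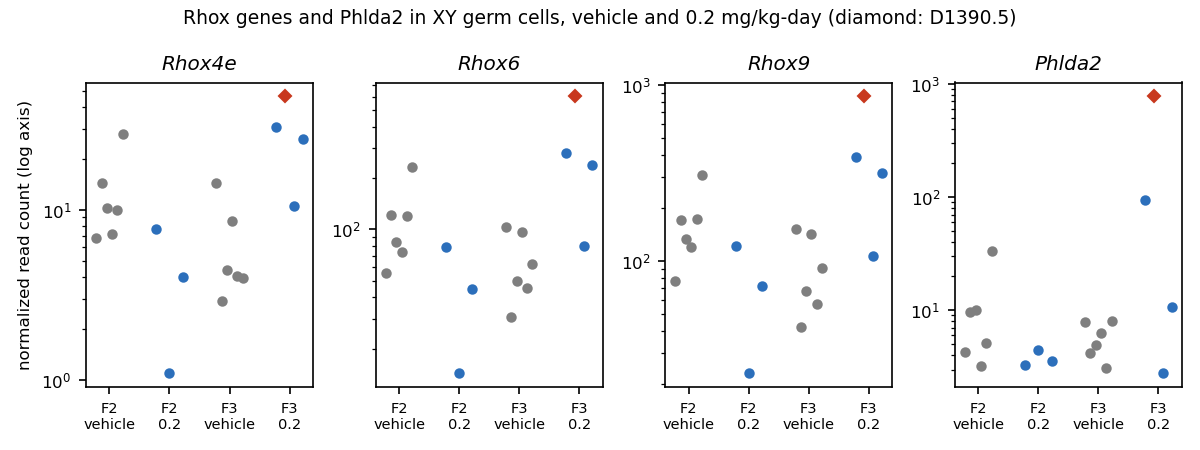
Normalized read counts (log axis) of Rhox4e, Rhox6, Rhox9 and Phlda2 in XY embryos of F2 and F3, vehicle and 0.2 mg/kg-day lineage, each point an embryo and the diamond D1390.5. D1390.5, D1390.1 and D4021.2 lie above every F3 vehicle embryo in each panel, and D1464.2 does not. The highest F2 vehicle embryo for Rhox4e, at 27.9, lies above D4021.2 at 25.9. For Phlda2 the highest F2 vehicle embryo, at 33.3, also lies above D4021.2, at 10.8.

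A few genes that direct male germ cell fate passed the unadjusted limits as lower, and none did without D1390.5. Of 11 tested, 7 of them male-specific, 2 were lower (18.2%, against 4.94% of all genes) and 0 higher, and without D1390.5 0 passed in either direction. Their median log2 difference was -0.27, and 0.07 without D1390.5 and -0.16 without D3523.1. Nanos2, an RNA-binding protein gene that blocks meiosis in the male, had 0.168, 0, 2.27 and 0.0953 against 0.472, 1.43 and 9.14. D1390.5 was the lowest embryo for Nanos2, and D1390.1 and D4021.2 also lay below vehicle. The log2 difference of Nanos2 was -1.43, and still -1.17 without D1390.5 (limma, unadjusted p 0.120). Nanos2 also missed the limits without D1390.1, D4021.2, D1388.1, D3612.2 or D3651.1. Lefty1 and Lefty2, feedback inhibitors of Nodal, had 20.5 and 33.8 in D1390.5. In the other exposed embryos Lefty1 had 48.5, 75.1 and 66.6 and Lefty2 70.5, 83.7 and 115, against 54.9 to 106 and 53.7 to 122 in vehicle. The list summed to 290, 178, 364 and 389 in the exposed embryos and to 309 to 477 in vehicle, with Lefty2 as its most abundant gene. The count of 2 was 1 without D1390.1, D4021.2, D1388.1, D3402.3, D3523.1, D3612.2 or D3651.1 and 3 without D1464.2.

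Of 29 tested genes of meiotic entry and prophase, 22 of them female-specific, 0 passed in either direction with or without D1390.5, and the median log2 differences were -0.10 and -0.19. The median was -0.16 without D1464.2, -0.02 without D3402.3 and 0.03 without D4021.2, so its sign turned in the last. Sums were 1622, 2102, 1988 and 1247 against 1544, 1784 and 3049, the last in D3402.3. Syce2, of the synaptonemal complex, was the most abundant, with 738, 841, 674 and 395 against 508 to 912. Smallest p values in the list belonged to Hormad2 (log2 difference -0.40), Stag3 (0.31) and Tex15 (0.54). Of 11 germ cell identity genes 2 were higher (18.2%, against 3.33% of all genes) and 0 lower, both with and without D1390.5, and the median log2 difference was 0.11 (0.07 without), with 0.02 without D3651.1, 0.25 without D1390.1 and 0.29 without D3402.3. Kit, the receptor for stem cell factor, had 52.7, 53.9, 41.5 and 56.8 against 15.9, 26.2 and 59.0. Its log2 difference was 0.87, and 0.84 without D1390.5. Tfap2c, a transcription factor of germ cell specification, had 23.2, 23.1, 8.83 and 22.4 against 6.20, 7.90 and 13.1, so D1464.2 was the exposed embryo within vehicle. Prdm14 had 18.0, 15.9, 11.7 and 24.6 against 10 to 16.8, and Dppa3 2116, 1954, 2584 and 1389 against 2050 to 2807; neither passed.

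Of 15 pluripotency genes, 2 were higher (Tfcp2l1 and Lin28a; 13.3%, against 3.33% of all genes) and 1 was lower (Klf4; 6.67%, against 4.94%), and without D1390.5 only Tfcp2l1 was left (6.67%, against 1.91%). Across the 15 the median log2 difference was 0.42, and 0.26 without D1390.5. Tfcp2l1, a transcription factor of naive pluripotency, had 15.8, 20.8, 10.7 and 15.3 against 5.27, 8.87 and 10.8. Klf4 had 2.36, 1.15, 2.52 and 1.14 against 0.860 to 7.90, within the vehicle range throughout, and was past the limits in 5 of the 10 fits that leave out an embryo. The count of 2 higher genes became 4 without D1464.2 or D3523.1, 3 without D3402.3 and 1 without D1388.1. Dppa5a was the most abundant pluripotency gene, and the list summed to 5900, 5040, 4814 and 4530 against 4088 to 5645.

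Of 28 genes of cell division, 1 was higher with D1390.5 (Rrm2; 3.57%, against 3.33% of all genes) and 1 without (Bub1b; 3.57%, against 1.91%), and 0 were lower in either fit. The count with D1390.5 was thus at the background. A positive log2 difference was found in 23 of the 28, beside 6722 of all 13139 genes, and the median was 0.26 (0.28 without D1390.5 and 0.15 without D4021.2). Mki67, a proliferation marker, had 87.1, 89.8, 106 and 128 against 59.6, 70.9 and 83.6. All 4 exposed embryos were above vehicle, with a log2 difference of 0.49 ± 0.18, or 0.55 without D1390.5, which is under 1.5-fold. Rrm2, a ribonucleotide reductase subunit gene, had 182, 276, 161 and 255 against 66.9 to 182. It missed the unadjusted limits without D1390.5, D4021.2 or D3651.1. Its log2 difference was 0.77, and 0.64 without D1390.5, still past 1.5-fold (limma, unadjusted p 0.0699). The count of higher genes was 0 without D4021.2 or D3651.1 and 2 without D1390.1. Cenpe had 77.1, 141, 109 and 125 against 60.5 to 121. Ccnb1, the most abundant, had 1192, 1422, 1469 and 1468 against 804 to 1463.8, and the list summed to 6085, 7017, 7121 and 7234 against 4924 to 7301. Of 14 genes of G1 control, 4 were lower (28.6%, against 4.94% of all genes) and 1 higher (7.14%, against 3.33%). This list mixes cell cycle inhibitor and Rb genes with D and E cyclin genes, so its counts and median do not measure arrest. Without D1390.5 5 were lower (35.7%, against 2.9%) and 0 higher. The median log2 difference was -0.11, and -0.01 without D1390.5, and -0.19 without D1464.2 or D3402.3. Of the cyclin D genes, Ccnd2 was lower in both fits and Ccnd1 in the fit without D1390.5. The cell cycle inhibitor genes Cdkn2b, Cdkn1c and Cdkn1b were lower in both. Cdkn2b had 1.51, 1.72, 0.504 and 1.43 against 2.21, 2.38 and 5.96, with no overlap and D1464.2 lowest. Its log2 difference was -0.96, or -1.08 without D1390.5. Cdkn1c had 14.1, 18.2, 17.5 and 10.2 against 16.1, 25.8 and 52.5, and Cdkn1b 0.336, 0.575, 0.630 and 0.572 against 0.508, 1.36 and 2.99. Cdkn1c was past the limits in each fit except that without D4021.2, where 3 genes of the list were lower. Ccne1, cyclin E, was the higher gene, with 75.2, 99.7, 71.9 and 102 against 33.8 to 89.1. Its log2 difference was 0.75, and 0.68 without D1390.5 (limma, unadjusted p 0.0560). The list summed to 316, 414, 299 and 394 against 275 to 391, Ccne1 being most abundant, and its higher count was 0 without D1390.5, D4021.2 or D3651.1 and 2 without D1464.2 or D3523.1.

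Few genes of DNA methylation, the aryl hydrocarbon receptor and p53 were past the limits. Of 22 genes of DNA methylation and transposon silencing 1 was lower (4.55%, against 4.94% of all genes, and so at the background), Uhrf1, a partner of the maintenance methyltransferase, with 7.07, 2.44, 11.1 and 4.10 against 7.25 to 13.3. Without D1390.5, D4021.2 or D3651.1 the count was 0, and it was 2 without D1390.1 or D1344.2 and 3 without D1464.2 or D3523.1. The median log2 difference of the list was -0.23, and -0.26 without D1390.5. Dnmt3a had 6.56, 5.89, 10.7 and 8.29 against 8.41 to 16.1, Tdrd5 17.3, 17.1, 42.4 and 30.2 against 27.5 to 68.9, and Tdrkh, the most abundant, 201, 209, 219 and 163 against 177 to 246. The sums were 766, 864, 899 and 995 against 805 to 1016. BaP is a ligand of the aryl hydrocarbon receptor. Of 6 tested genes of the receptor and its targets 1 was lower with and without D1390.5 (16.7%, against 4.94% and 2.9% of all genes), Gsta1, a glutathione transferase gene, with 0, 0.287, 0.378 and 0.381 against 0.123, 1.69 and 4.24. Gsta1 was also a male-specific gene. Ahr itself had 5.38, 5.89, 3.78 and 4.19 against 2.40 to 7.61, and Tiparp, its most abundant target here, 19, 31.2, 17.8 and 29.0 against 10.9 to 33.1. The median log2 difference was 0.21 (0.18 without D1390.5 and 0.10 without D3651.1), and the sums were 50.8, 63.4, 50.8 and 62.9 against 34.7 to 72.0.

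Of 19 p53 targets 3 were higher (15.8%, against 3.33% of all genes) and 1 lower (5.26%, against 4.94%). Without D1390.5 2 of 18 were higher (11.1%, against 1.91%) and 1 lower (5.56%, against 2.9%). The medians were 0.32 and 0.34, and 0.18 without D3402.3 and 0.21 without D3651.1. Pmaip1, which encodes the cell death inducer NOXA, had 32, 11.8, 95.4 and 48.4 against 63.7, 94.6 and 211. Perp had 3.53, 10.6, 2.40 and 9.24 against 0.846 to 4.39, and Zmat3 4.54, 3.59, 4.16 and 4 against 1.02 to 3.8. Pmaip1 was also male-specific and Perp female-specific. Gadd45a was the further gene that passed the limits as higher with D1390.5 only. Bax, the most abundant, had 301, 291, 345 and 258 against 140 to 388, and the sums were 690, 706, 787 and 727 against 652 to 840. The count of 3 was 1 without D1390.1 or D3612.2 and 5 without D3402.3. Of 18 immediate early and heat shock genes, which can reflect handling, 4 were lower (Jun, Egr1, Hspa1a and Hspa1b; 22.2%, against 4.94% of all genes) and 0 higher, and 1 was lower without D1390.5 (Hspa1b; 5.56%, against 2.9%). The median log2 difference was -0.21, and -0.11 without D1390.5, -0.09 without D1464.2 and -0.05 without D1388.1. Hspa1b had 1.18, 0.144, 0.883 and 0.667 against 0.737 to 4.80, Egr1 2.19, 0, 0.883 and 1.14 against 0.123 to 7.61, and Hspa1a 0.673, 0, 0.504 and 0.0953 against 0 to 1.92. Dnajb1, the most abundant, had 177, 131, 165 and 155 against 128 to 254, and the sums were 446, 411, 380 and 441 against 351 to 608. The count of 4 was 2 without D4021.2, D1344.2, D1388.1, D3402.3 or D3651.1. Of these 18 genes 8 were male-specific.

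Markers of Sertoli cells, the somatic cells around XY germ cells, were lower with D1390.5, which held the least of them. Of 11 tested, 9 were lower (81.8%, against 4.94% of all genes) and 0 higher with a median log2 difference of -1.06. Without D1390.5 1 was lower (Amh; 9.09%, against 2.9%), and the median was -0.82. The other embryos left out in turn gave 6 to 11. The 12 listed genes summed to 497, 77.3, 468 and 133 in D1390.1, D1390.5, D1464.2 and D4021.2, and to 79.5, 869 and 1456 in vehicle. Vehicle embryo D3523.1, at 79.5, was as low as D1390.5. Cst9, a cystatin gene and the most abundant marker, had 270, 18.1, 243 and 48.1 against 35.3, 485 and 762. Amh, the anti-Müllerian hormone gene, had 0.505, 0, 0.630 and 0.858 against 0.123, 1.96 and 3.63. Ptgds, a prostaglandin synthase gene, had 45.8, 4.02, 62.4 and 23.2 against 10.6, 85.5 and 215, and Vnn1 0.673, 0, 1.64 and 1.72 against 0.123 to 7.84. The vehicle range held every exposed embryo except D1390.5 for Cst9, Amh, Ptgds and Vnn1. Of the 12 genes 11 were in the male-specific list above, and how far Sertoli cell RNA contributed to the lower male-specific genes was not tested. In bulk RNA, fewer cells of a type and less RNA per cell cannot be told apart.

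Markers of other somatic cells were near 0 in most libraries. Of 6 pregranulosa genes 1 was lower (16.7%, against 4.94% of all genes), Rspo1 (0.505, 0.144, 1.64 and 1.05 against 0.878 to 9.01), and 0 without D1390.5, D1390.1 or D3612.2. Rspo1 also missed the limits without D1388.1, the vehicle embryo at 9.01, where another gene of the list was lower. Over the 6 the median log2 difference was -0.12 (-0.06 without D1390.5), from -0.22 without D3612.2 to 0.00110 without D1388.1, and the sums were 4.21, 5.89, 4.16 and 5.81 against 4.82 to 12.9. Axin2, the most abundant, had 2.19, 4.31, 1.26 and 2.86, and Lgr5 stayed below 1. Of 3 fetal Leydig genes 0 passed, with a median of -0.14 (-0.22 without D1390.5) that ran from -0.44 without D3523.1 to 0.15 without D1388.1. The sums were 9.42, 3.74, 8.45 and 3.53 against 1.84 to 40, the highest in D1388.1. Hsd3b1, the most abundant, had 6.73, 0.287, 3.15 and 1.05 against 0.983 to 9.26, and Star and Insl3 had at most 1.72 in the exposed embryos. The count was 1 without D1390.1 or D3523.1. Of 8 stroma and mesonephros genes 1 was lower with and without D1390.5 (12.5%, against 4.94% and 2.9% of all genes), Dcn (decorin), with 0, 0, 1 and 0 reads against 3 to 349, again highest in D1388.1. The median was -0.88 (-0.93 without D1390.5, and -0.35 without D1388.1), and the sums were 3.20, 4.17, 1.89 and 3.05 against 2.96 to 95.2. Without D1464.2 1 gene was higher. Acta2 had 0.841, 0.862, 0.630 and 0.953 against 1.07 to 6.22, and Col3a1 was 0 in 3 of the exposed embryos. Of 8 erythroid genes 0 passed, with a median of -1.16 in both fits and 0.01 without D1388.1, and the sums were 4.88, 4.45, 3.15 and 5.81 against 2.65 to 5988. Hba-a1, the most abundant, had 3, 3, 3 and 0 reads, and Hbb-b1 and Hbb-b2, which may share reads, had 0. D1388.1 alone had them at high level, with 18739 reads of Hba-a1.

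Endothelial and immune markers moved in different directions. Of 7 endothelial genes 2 were higher (28.6%, against 3.33% and 1.91% of all genes) and 0 lower in both fits (Pecam1 and Plvap with D1390.5, Pecam1 and Eng without), with medians of 0.25 and 0.18. The median was 0.09 without D4021.2, 0.12 without D3402.3, 0.04 without D3651.1, 0.37 without D1388.1 and 0.40 without D1390.1. Pecam1, an adhesion molecule gene that germ cells also express, was the most abundant, with 37.7, 37.8, 28.1 and 48.4 against 14.2, 20.3 and 33.8. Plvap had 9.08, 16.1, 4.92 and 10.6 against 2.19 to 11.7 and Eng 2.36, 1.15, 1.01 and 2.86 against 0.705 to 1.17. The sums were 63.8, 69.7, 42.5 and 78.4 against 25.5 to 67.2. The count was 0 without D4021.2 and 1 without D1390.1, D1344.2, D3402.3, D3612.2 or D3651.1, and 3 without D1464.2. Of 17 macrophage genes 1 was higher (5.88%, against 3.33% of all genes), Apoe (73.7, 141, 44.5 and 66.8 against 11.4, 43.8 and 56.9), and 0 without D1390.5. The medians were 0.40 and 0.43, with 0.26 without D1388.1, 0.21 without D3523.1 and 0.65 without D1344.2, and the sums 95.9, 169, 72.1 and 107 against 40.7 to 119. Apoe made up most of the sum in each exposed embryo, while Tyrobp had 2.77 to 4.57 and Fcgr3 1.01 to 3.14. The count was 2 without D1464.2 or D3612.2 and 3 without D1344.2. Of 8 genes of dendritic cells and antigen presentation, 2 were lower (25%, against 4.94% and 2.9% of all genes) and 1 higher (12.5%, against 3.33% and 1.91%) in both fits, with medians of -0.42 and -0.46, and -0.27 without D3651.1. H2-Aa, a class II histocompatibility gene, had 0.841, 0, 0.756 and 1.24 against 0.246 to 5.58, and Batf3, the most abundant, 5.72, 9.63, 8.32 and 2.57 against 5.71 to 23.4. Fscn1 was higher, with 5.05, 4.60, 1.39 and 10 against 0.634 to 2.24, but not without D4021.2. The lower count was 3 without D1464.2, D3402.3 or D3523.1. The sums were 16.7, 21.0, 14.5 and 19.2 against 14.8 to 38.2. Of 3 lymphocyte genes 1 was higher in both fits (33.3%, against 3.33% and 1.91% of all genes), Lck, a T cell kinase gene, with 9.93, 9.77, 4.29 and 11.3 against 0.854, 2.32 and 5.41. Cd79a had 1.05 to 1.87 and Cd79b 0.336 to 2.30 in the exposed embryos. The median was 0.48 (0.36 without D1390.5), and the sums were 11.9, 14.1, 7.31 and 14.0 against 2.77 to 7.86. Whether immune cells were present was not tested. Of 7 Y-linked genes 0 passed with a median of -0.09 that ran from -0.28 without D4021.2 to 0.11 without D1390.5, and the sums were 267, 162, 357 and 309 against 234 to 506, Eif2s3y being most abundant. Zfy1 had 11.6, 10.8, 12.5 and 13.6 against 8 to 12.7. Without D1464.2, D4021.2, D3523.1 or D3651.1 1 Y-linked gene was lower. Of Xist and Tsix 0 passed, with a median of -0.09 that ran from -0.26 without D4021.2 to -0.00435 without D3651.1 (-0.05 without D1390.5), and they summed to at most 1.24 in the exposed embryos.

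Exposed F3 XX embryos numbered 2, against 6 XX vehicle embryos, and they shared no embryo with the XY comparison, though most were littermates of its embryos. No gene was called as different in its response between XY and XX (limma, 0 of 13139, 0%; 216 higher and 269 lower at the unadjusted limits), nor without D1390.5 (0 called; 120 and 134). The same held with any other embryo of the 4 groups left out. XY and XX embryos shared 2 exposed and 5 vehicle dams. With dam as a random block limma again called 0, with 287 higher and 336 lower at the unadjusted limits, and 0 without D1390.5, with 220 and 234. Ccl25 was low in XX too, at 4.14 and 5.81 against 8.82, 11.8 and 20.8 in XX vehicle, below every vehicle embryo. Ccl17 was 0 in all 6 XX vehicle embryos and 0 and 0.0986 in the exposed XX embryos, and Ccr7 had 0.132 and 0.789 against 0.131 to 1.23. Nlrp4c had 21.0 and 33.1 in the exposed XX embryos against 4.17 to 17.9, Kit 59.7 and 64.4 against 33.3 to 46.9 and Mki67 94.9 and 110 against 47.3 to 73.3. For these 3 genes both exposed XX embryos were above vehicle. Rhox9, at 864 and 1171, overlapped its XX vehicle range of 716 to 1087. The genes with the smallest p for a difference between the sexes were higher in XY and lower in XX, such as 1700013H16Rik, 1700019N12Rik and Gpr160, or the reverse, such as Lefty2, Phactr3 and Zbp1. Without D1390.5 they included Tmem90b, 2610018G03Rik and Gsta1.

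In F2, the 3 exposed XY embryos and 6 vehicle embryos did not show the F3 pattern of Rhox genes or Ccr7. The response differed between F3 and F2 in 77 of 13111 genes by limma at an adjusted p under 0.05 (0.587%), 33 of them more positive in F3 and 44 more negative. Among the 33 were Rhox4a to Rhox4g, Rhox6, Rhox9, Phlda2, Whsc1, Perp and Ddhd1, and among the 44 were Ccr7, Eya2, Cdkn2b, Pmaip1, Gal, Ocln and Ucma. Rhox9 had 122, 23 and 71.9 in the exposed F2 embryos against 76.8, 153 and 307 in F2 vehicle, the reverse of F3. Ccr7 had 6.79, 5.72 and 7.57, above all F2 vehicle embryos (1.82 to 5.05), where in F3 it was lower. Cdkn2b had 3.40, 3.27 and 3.91 against 1.09 to 2.27, also the reverse of F3. For Ccr7 the difference of the log2 differences was -2.49 (limma, adjusted p 0.0253), and -2.09 without D1390.5 (adjusted p 0.145). Ccl25 had -1.79 (adjusted p 0.0956) and Ccl17 0.08 (adjusted p 0.988), the latter being 0.126 to 0.818 in exposed and 1.06 to 4.2 in vehicle F2 embryos. The count of 77 rested on few embryos. It was 0 without D1390.5, where the lowest adjusted p was 0.107 and all 77 genes were still past 1.5-fold at an unadjusted p under 0.05 with the same sign. It was also 0 without the F2 exposed embryo D1064.1 or D3371.2. It was 8 without D1390.1, 17 without D4021.2, 331 without D1464.2, and 116 without the F2 exposed embryo D1040.1. Of the vehicle embryos, the count was 15 without D1388.1, 13 without D3612.2, 21 without D3651.1, 130 without D1344.2 and 164 without D3402.3. It was 40 without C4992.2, 15 without D3001.1 and 12 without D3133.5, vehicle embryos of F2.

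The F3 XY embryos of the low (0.033 mg/kg-day, 4) and high dose (2 mg/kg-day, 3) were compared with the same 6 vehicle embryos, so the values are only set side by side. Ccl17 was 1.15 to 5.53 at the low and 0.498 to 4.84 at the high dose, Ccl25 13.54 to 52.0 and 24.6 to 47.5, and Ccr7 2.79 to 9.97 and 3.13 to 8.17. These overlapped the vehicle range for each gene. Rhox9 was 20.4 to 347 at the low and 21.5 to 98.6 at the high dose. Phlda2 was 5.85 to 21.2 and 2.69 to 8.17, Whsc1 24.3 to 32.2 and 26.4 to 38.5, and Nlrp4c 3.14 to 10.5 and 5.70 to 8.73. Levels of Phlda2 near those of D1390.5 or D1390.1 were not reached at either dose. At the unadjusted limits 250 genes passed at the low and 94 at the high dose, beside 1086 at the middle dose, and limma called 0 at each, while edgeR was not run for these doses.

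The exposed lineage was represented by 3 dams, and 2 of its 4 embryos came from the same dam, D1390. Dam and lineage dose therefore cannot be separated for the genes that rested on that litter.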

How the data were processed

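Each deposited signal value is a count of reads on a gene, scaled by the authors with TMM factors from edgeR. Upstream of it they used Trim Galore, STAR on mm10 (GRCm38) and Rsubread. The table held 15423 genes, of which 15167 matched a single gene of GENCODE vM21. All nonzero values of the 10 embryos (100%) lay within 0.05 of a whole multiple of a step per embryo, so reads were recovered for edgeR. In R 4.3.3, limma 3.58.1 was fitted to log2(normalized count + 0.5) of genes with a mean of at least 0.5, over the 33 F3 embryos in 8 sex-by-dose groups, with Benjamini-Hochberg adjustment at 0.05. A further count took genes at least 1.5-fold apart at p under 0.05 before adjustment. Tables and figures were made with Python 3.11.15, pandas 2.3.3, numpy 2.4.6 and matplotlib 3.10.9.

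Alternatives were other pseudocounts (0.1 and 1), no filter, a minimum mean of 5, 2 other scalings, a fit of the 2 groups alone, littermates averaged, dam as a random block (correlation 0.225), array weights, both the quasi-likelihood and the likelihood ratio tests of edgeR 4.0.16, and leaving out each embryo. Fits without D1388.1 and D3402.3, without both D1390 littermates, with each embryo left out for the comparisons with XX and F2, and with dam as a random block for that with XX were added after the data were seen. Named genes follow a rule: those with the smallest p in each direction with all 4 embryos, without D1390.5, in both, or with D1390.5 only, C-C chemokine genes discussed in the study, the members of each list with the smallest p or highest mean, the most abundant sex-specific genes, and those with the smallest p for a difference from XX or F2. Rhox4a, Rhox4d, Rhox4f, Rhox5, Rhox6, Rhox7, Slc22a18, Calcoco2, Stra8 and Fgf15 were chosen after their values were seen. The count over the Rhox family was also added then. A gene that the rule names is not reported here. The embryos and lists were chosen with earlier results of these data known. The methods were tested on simulated independent counts with no littermates and no atypical embryo, so those features were not covered. The pass mark was changed after limma without D1390.5 missed the first one. Among 45 pairs of the 10 libraries, none was a copy of another (lowest chi-square per degree of freedom 10.4).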

Additional observations from a re-analysis of the deposited data

Results flagged for a closer look

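A sample was marked where its distance from its nearest neighbour was a large share of the range of its group, a rule that chance meets in about 1 in 20 groups. Of 344 groups examined, 38 held such an embryo (11%).

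In the exposed lineage, D1390.5 was far above the others for Cd164l2 (7.33), Ccl28 (1.58) and the summed level of female-specific genes (21102.8), and below for Stap2 (0.287). D1464.2 stood apart for Stard8 (1.26), Nanos2 (2.27), Tfap2c (8.83), Dcn (0.126), Lck (4.29) and Dusp26 (0.252). D1390.1 was low for Ccnb1 (1192). D4021.2 stood apart for Col3a1 (0.0953), Tsix (0.476), the sum of C-C chemokine genes (61.9) and that of the X inactivation genes (1.24).

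Among vehicle embryos, D1388.1 was high for Cdkn2b (5.96), Rspo1 (9.01), Insl3 (8.88), Dcn (44.3), Col3a1 (8.63), Hbb-b1 and Hbb-b2 (605 each) and Hba-a1 (2378), and low for Fscn1 (0.634). Its stroma sum was 95.2 and its erythroid sum 5988. D3402.3 was low for Bax (140), Apoe (11.4) and Ldhb (999.8) and high for Eif2s3y (380), Sycp3 (489) and Vbp1 (907). Its sums were also high for meiotic genes (3049), Y-linked genes (506) and female-specific genes (17074.6), and its median correlation with the other embryos was low (0.935). D3523.1 was low for Vnn1 (0.123) and D3612.2 for Eng (0.705).

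Between generations, the log2 difference from vehicle was larger in F3 than in F2 by 3.999 for Rhox4c, 1.327 for Ddhd1 and 3.689 for Rhox4e. The F3 minus F2 value was -2.982 for Eya2, -2.794 for Dusp26 and -1.812 for Cdkn2b. These were the 3 genes in each direction with the smallest p in limma, and none was called without D1390.5.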

How the results depend on the processing

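No paired analysis was possible because the exposed and vehicle embryos came from different dams. With a random block for dams limma again called 0 genes with all 4 embryos and without D1390.5, with 379 genes higher and 567 lower at the unadjusted limits in the former. The 3 chemokine genes kept a negative log2 difference in every setting, and Whsc1, Nlrp4c and Smarcc2 kept their signs as well. The count of genes called with all 4 embryos was 1 with no filter, 185 with array weights, 85 with edgeR's likelihood ratio test and 5 with its quasi-likelihood test, and 0 to 172 when each embryo was left out. The unadjusted counts were 218 higher and 257 lower at a minimum mean of 5, where fewer genes were tested, 228 and 304 without both D1390 littermates, and 251 to 669 higher and 382 to 874 lower when each embryo was left out. Without D1390.5, the likelihood ratio test called 1 gene and leaving out a further embryo 0 to 4. The unadjusted counts there were 137 and 156 at a minimum mean of 5, 461 higher with array weights, and 86 to 478 higher and 134 to 637 lower when a further embryo was left out. Genes with a different response in XY and XX numbered 0 with that block too. Genes with a different response in F3 and F2 numbered 0 without D1390.5 and 0 to 331 over the embryos left out. A scaling by upper quartiles or median of ratios left 0 called, and the median log2 difference of all genes moved by under 0.1. Except for the fewer genes tested, the cause was not tested.

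The log2 difference turned in sign for some named genes, and went to 0 for Hbb-b1 and Hbb-b2. None of them was past the unadjusted limits with all 4 embryos or without D1390.5, and not all were near 0 in the main fit (-1.71 for Hbb-b1 and Hbb-b2, -1.76 for Hba-a1). Without both D1390 littermates they were -0.143 for Ccl28, -0.163 for Ccl27a, 0.229 for Lefty2, -0.174 for Insl3, 0.121 for Cd79b, 0.0367 for Eif2s3y, 0.065 for Xist, 0.0909 for Tsix, 0.191 for D14Ertd449e, 0.191 for Gm10395, 0.19 for Gm9746, -0.831 for Mdk, -0.14 for Vbp1 and -0.202 for Stra8. With array weights they were -0.0412 for Ccl27a, -0.104 for Bax, 0.0774 for Sycp3 and -0.224 for Stra8. Without D1388.1 and D3402.3 they were -0.175 for Ccl27a, -0.162 for Bax, 0.347 for Star, 0 for Hbb-b1, 0 for Hbb-b2, 0.0728 for Hba-a1, 0.127 for Sycp3 and -0.0206 for Mdk. In edgeR's likelihood ratio test they were -0.737 for Insl3, 0.045 for Cd79b and -0.173 for Vbp1. In edgeR's quasi-likelihood test they were -0.749 for Insl3, 0.0452 for Cd79b and -0.173 for Vbp1. With littermates averaged they were 0.00634 for Tsix, -0.16 for Mdk and -0.0326 for Vbp1. With dam as a random block they were 0.00204 for Tsix. With upper quartile scaling they were -0.0136 for Vbp1. With median-of-ratios scaling they were -0.00108 for Vbp1. When each embryo was left out, they ran from -0.102 to 0.387 for Ccl28, -0.0575 to 0.242 for Ccl27a, -0.512 to 0.0712 for Lefty2, -0.311 to 0.0519 for Syce2, -0.189 to 0.00954 for Dppa5a, -0.141 to 0.153 for Bax, -0.442 to 0.148 for Star, -0.0623 to 0.712 for Insl3, -2.05 to 0 for Hbb-b1, -2.05 to 0 for Hbb-b2, -2.25 to 0.194 for Hba-a1, -0.295 to 0.286 for Cd79b, -0.185 to 0.0314 for Tsix, -0.337 to 0.134 for Sycp3, -0.399 to 0.643 for Mdk, -0.162 to 0.344 for Vbp1 and -0.511 to 0.72 for Stra8. The cause was not tested, except that no embryo but D1388.1 held reads of Hbb-b1 and Hbb-b2. Low depth limits genes of a few reads, such as Ccl17.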
